A study of Sus scrofa with 5 samples.

Results

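The enzymes that make serine and glycine were examined in the backfat of 5 pigs, each measured on 1 Affymetrix porcine array. They were chosen by name, as PHGDH, PSAT1, PSPH, SHMT1 and SHMT2, and every probe set annotated with exactly 1 of these symbols was taken. Of these 5 genes, 4 had such a probe set and SHMT1 had 2, so 5 of the 23999 tested probe sets, or 4 of the 6765 genes with a symbol of their own, are described. SHMT2 had no probe set in the annotation used and was not measured here. All pigs were females of an Iberian × Landrace backcross (BC1_LD) raised on the same cereal-based diet, and their backfat was collected at slaughter. The H group (BC4, BC5 and BC6) and the L group (BC2 and BC3) stood at opposite ends of a principal component of carcass and muscle fatty acid (FA) traits, with more polyunsaturated FA in the muscle of H pigs and more saturated and monounsaturated FA in that of L pigs. The array labels name only the animals, and the study's list of animals gives the group of each. Pigs of a group were not siblings, so that each array stands for a separate animal, but the L group was left with 2 arrays.

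Serine is made from 3-phosphoglycerate, an intermediate of glycolysis. PHGDH, the phosphoglycerate dehydrogenase, oxidizes it, PSAT1, a transaminase, adds an amino group taken from glutamate, and PSPH, the phosphoserine phosphatase, removes the phosphate. SHMT1 in the cytosol and SHMT2 in mitochondria convert serine to glycine and pass a carbon unit to folate, which cells use to make nucleotides and methyl groups. In adipocytes the pathway draws on the same glucose-derived carbon as lipogenesis, and in mammals its genes are known targets of ATF4, a transcription factor of the amino acid response.

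The values are on the log2 scale. They ended at a floor of 2.17, at which 5576 probe sets lay on all arrays, and a value near it gives no measured level. Spearman's rho between pairs of arrays was 0.982 to 0.99 across probe sets, which are not independent replicates. Of 10 listed adipocyte markers, 8 had a probe set and all were above the floor, with FABP4 between 15.36 and 15.49. Their mean log2 value was 12.18 on BC4, 11.23 on BC5 and 12.24 on BC6 in H, and 12.29 on BC2 and 11.97 on BC3 in L. It was lowest on BC5, where LEP was at 4.41 and ADIPOQ at 9.09, and 3 of the 8 markers had a higher mean in H and 5 a lower one. The extraction label names liver, and of 10 listed hepatocyte markers APOA1 was at 11.29 to 12.57, whereas the others, ALB among them, lay at or below 4.69 on all arrays and SERPINA1 was at the floor. The arrays fell into 2 levels of the spike-in controls, RNAs that are added to the sample before labelling. The mean over their 36 probe sets was 5.13 on BC4, 7.45 on BC5 and 4.92 on BC6 of the H group, and 4.96 on BC2 and 7.69 on BC3 of the L group, so BC5 and BC3 stood above the rest. The same 2 arrays had the highest skeletal muscle markers, with a mean log2 value of 5.76 on BC5 and 4.30 on BC3, against 2.45 to 2.86 on the other arrays. Since each level held both groups, the differences of the enzymes are also given within each level.

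The enzymes of serine synthesis had lower means in the H group than in the L group, and SHMT1 had a higher one, but the groups overlapped for each of the 5 probe sets. Over the 12727 probe sets with 5 distinct values, 20.9% did not overlap. PSPH differed by -1.52, PHGDH by -1.04 and PSAT1 by -0.72 on the log2 scale, and SHMT1 by 0.87 and 0.72. In limma, 0 of the 5 probe sets met the limits on p (0.01), adjusted p (0.1) and fold (1.2) together, and 0 had an unadjusted p under 0.05. Over all 23999 probe sets, 0.0% passed this threshold and 3.18% had an unadjusted p under 0.05. For 3 of the 4 genes the L mean was the higher, and 42.5% of the 18423 probe sets above the floor on some array had a lower mean in H and 52.7% a higher one. PHGDH, PSPH and SHMT2 are named as a group in the study's own pathway analysis of these animals. That analysis started from genes called different between H and L by RNA-Seq, in these pigs and a further L pig, BC1. The study thus called PHGDH and PSPH different, which these arrays did not. Their direction here is no independent evidence, since the animals are the same.

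**Figure D1:**
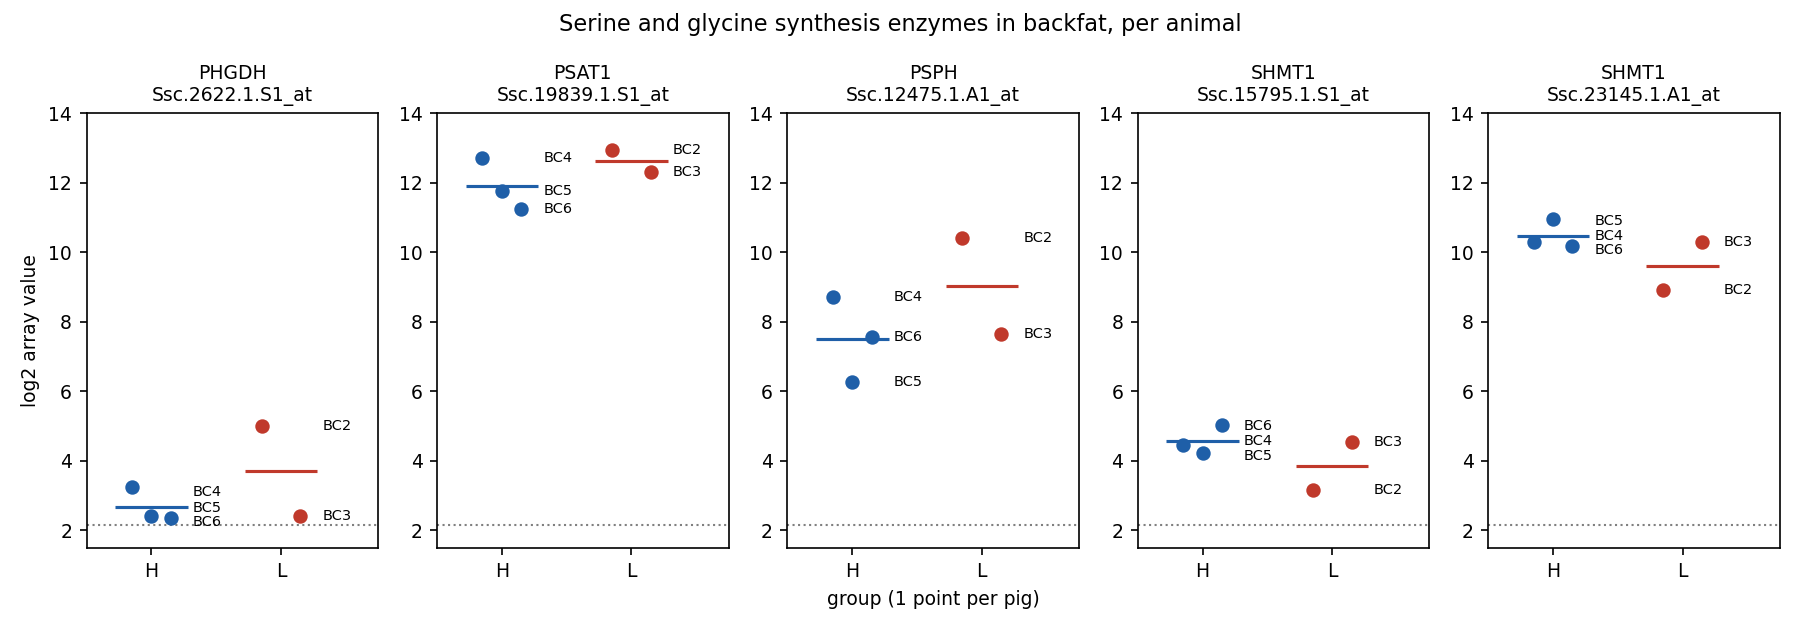
Log2 array values (vertical axis) of the 5 probe sets, 1 point per pig, blue for the H group and red for the L group, with the group means as lines and a dotted line at the floor of 2.17. BC2 of the L group lies at the top for PHGDH, PSAT1 and PSPH and at the bottom for both probe sets of SHMT1.

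PSPH, which catalyses the last step of serine synthesis, varied most. Its log2 value was 8.70 on BC4, 6.26 on BC5 and 7.55 on BC6 in the H group, and 10.41 on BC2 and 7.64 on BC3 in the L group. Only BC2 lay above all H arrays, whereas BC3 lay below BC4 and just above BC6. The mean of the adipocyte markers was likewise highest on BC2 and lowest on BC5, but BC6, second for the markers, lay below BC4 for PSPH. On BC5 the markers were divided, with LEP, ADIPOQ and LPL at their lowest and FABP4 and LIPE at their highest value. The part of adipocyte content in the values of PSPH was not tested. The H mean was 7.50 ± 1.22 (SD, n = 3) and the L mean 9.02 ± 1.96 (SD, n = 2), a 2.87-fold lower level in H on average (standard error 1.30 on the log2 scale, adjusted p = 1.0 from limma). The 95% confidence interval of the log2 difference ran from -5.43 to 2.40, so that these arrays exclude neither a large decrease nor an increase in H. From the lowest to the highest array PSPH spanned 4.15, or 17.8-fold, and 0.32% of the 18423 probe sets above the floor spanned as much. The 2 L arrays alone were 2.78 apart, more than the group means, which was so for 60.5% of the 12727 probe sets with 5 distinct values.

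PSAT1, the transaminase of the middle step, was far above the floor on every array. It had 12.71 on BC4, 11.77 on BC5 and 11.23 on BC6 in H, and 12.95 on BC2 and 12.29 on BC3 in L. BC5 and BC6 were below both L arrays, and BC4 lay between them. The H mean was 11.90 ± 0.75 (SD, n = 3) and the L mean 12.62 ± 0.46 (SD, n = 2), so that H was -0.72 relative to L (95% confidence interval -2.45 to 1.01, standard error 0.58, limma adjusted p = 1.0). In this gene the H arrays, 1.48 apart, spread more than the L arrays, 0.66 apart.

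PHGDH, the enzyme that commits 3-phosphoglycerate to serine, was near the floor on most arrays. Its log2 value was 3.24 on BC4, 2.40 on BC5 and 2.37 on BC6 in H, and 5.01 on BC2 and 2.40 on BC3 in L. BC3 and BC5 had the same value, and BC2 was the only array clearly above the floor. The difference of -1.04 (95% confidence interval -3.99 to 1.91, standard error 0.98, limma adjusted p = 1.0) therefore rests on BC2, and for the remaining arrays the level was too low to order them.

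SHMT1, the cytosolic enzyme that turns serine into glycine, differed in the opposite direction, with BC2 the lowest array. Its brighter probe set was at 10.28 on BC4, 10.95 on BC5 and 10.19 on BC6 in H, and at 8.92 on BC2 and 10.29 on BC3 in L. BC3 lay within the H arrays and BC2 below all of them. The H mean was 10.47 ± 0.42 (SD, n = 3) and the L mean 9.60 ± 0.97 (SD, n = 2), so that H was 0.87 above L (95% confidence interval -0.83 to 2.57, standard error 0.57, limma adjusted p = 1.0). The dimmer probe set had 4.45 on BC4, 4.22 on BC5 and 5.04 on BC6 in H, and 3.17 on BC2 and 4.53 on BC3 in L. Its mean was 0.72 higher in H (95% confidence interval -0.97 to 2.41, standard error 0.56, limma adjusted p = 1.0). The probe sets shared the low value of BC2 but not the highest array, which was BC5 for the brighter and BC6 for the dimmer.

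Across the animals, PSAT1 and PSPH had the same order at the top. BC2 was the highest array and BC4 the second in both, followed by BC3, with BC5 and BC6 last. BC2 was also the highest array for PHGDH. For PSPH, BC3 and BC6 were 0.085 apart, and these neighbours have no order that a single array per animal can support. In SHMT1, BC3 and BC4 were 0.0098 apart in the brighter probe set and 0.077 apart in the dimmer. BC2 was thus at an end of the order in all 5 probe sets. Over the 12727 probe sets with 5 distinct values, BC2 was the highest array in 21.4% and the lowest in 25.9%, and BC5, the lowest for PSPH, was lowest in 26.3%. FASN, the fatty acid synthase of lipogenesis, also had BC2 on top and BC4 next, with 13.27 on BC4, 8.59 on BC5 and 10.90 on BC6 in H, and 13.79 on BC2 and 10.66 on BC3 in L. This is its brightest probe set, with a difference H minus L of -1.31. Its other probe sets differed by -1.98, -1.55 and -0.74, the last with the H mean at the floor.

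A single animal carried most of the difference for PSPH, PHGDH and SHMT1. Without BC2, the difference of PSPH shrank to -0.13, that of PHGDH was 0.27 between arrays mostly near the floor, which gives no direction, and those of SHMT1 were 0.18 in the brighter and 0.04 in the dimmer probe set. PSAT1 kept -0.39 without BC2, and it was -0.38 without BC6 and -1.12 without BC4. Without BC3, all differences grew, to -2.91 for PSPH, -2.34 for PHGDH, -1.05 for PSAT1, and 1.56 and 1.40 for the 2 probe sets of SHMT1. With 1 L array left, its spread was taken to be that of the H arrays, and none of the 5 probe sets passed the threshold, which 0.667% of all probe sets passed without BC2 and 1.19% without BC3. Leaving out BC5 gave -0.90 for PSPH, and leaving out BC6 gave 0.49 for the dimmer probe set of SHMT1.

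**Figure D2:**
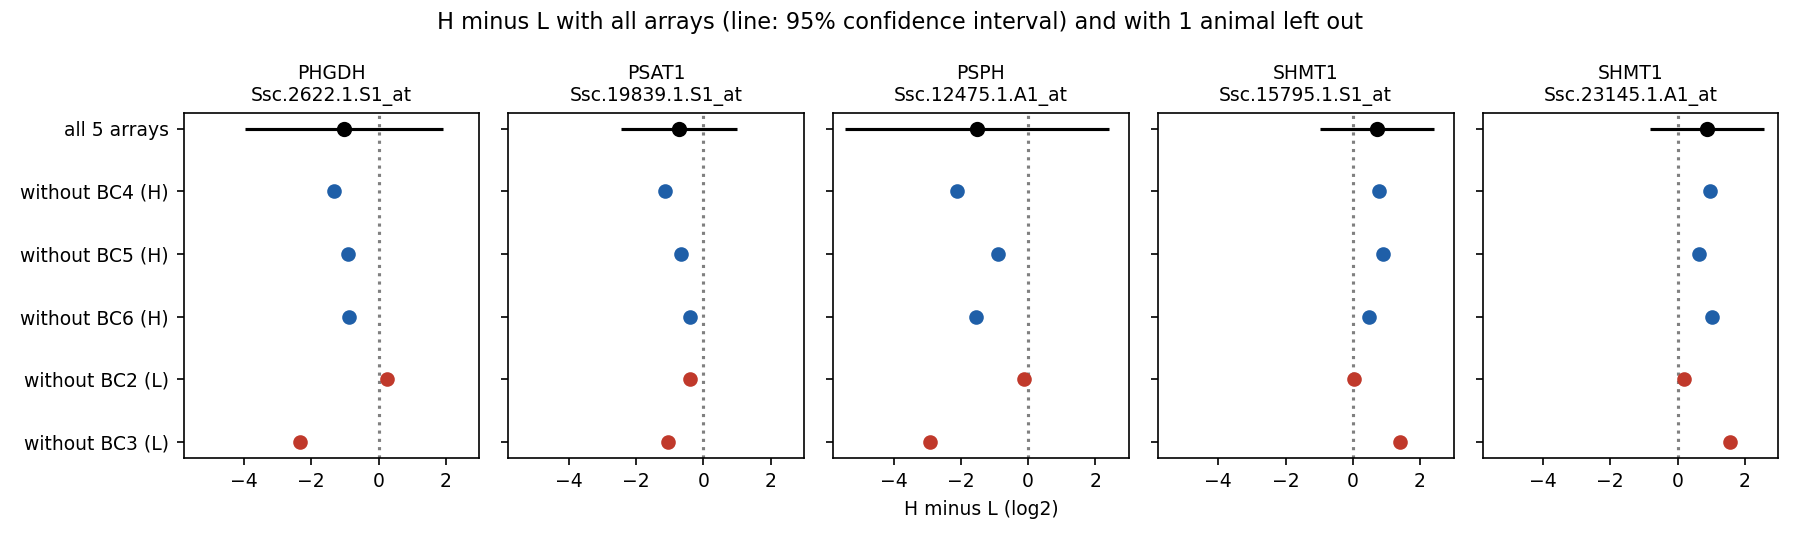
Differences H minus L (horizontal axis, log2) of the 5 probe sets with all arrays, in black with the 95% confidence interval from limma, and with 1 animal left out, in blue for an H animal and red for an L animal. Without BC2 the points of PSPH and of both SHMT1 probe sets lie close to 0 and that of PHGDH lies at 0.27.

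Within the 2 levels of the spike-in controls, PSPH, PSAT1 and the brighter probe set of SHMT1 kept their direction. At the high level, where BC5 was set against BC3, the difference was -1.38 for PSPH, -0.53 for PSAT1 and 0.66 for SHMT1. At the low level, where BC4 and BC6 were set against BC2, it was -2.28 for PSPH, -0.98 for PSAT1 and 1.32 for SHMT1. PHGDH differed by 0.0 at the high level and by -2.21 at the low level. The dimmer probe set of SHMT1 had opposite directions, with -0.31 at the high level and 1.57 at the low level. With the level as a block, chosen after the data were seen, limma gave -1.90 for PSPH, -0.79 for PSAT1, -1.26 for PHGDH and 1.03 for the brighter SHMT1 probe set, with adjusted p between 0.726 and 0.968 for them. Each level has a single array of the L group, so that no spread can be given within a level. RNA integrity was read from the signal at the 3′ end minus that at the 5′ end of control transcripts. For GAPDH this was 1.90 on BC4, 2.48 on BC5 and 1.81 on BC6 in H, and 1.52 on BC2 and 1.82 on BC3 in L. BC2, where PSPH was highest, had the smallest value of this control and BC5, where PSPH was lowest, the largest. For actin it was 4.04 on BC4, 4.80 on BC5 and 3.85 on BC6 in H, and 4.06 on BC2 and 4.78 on BC3 in L, so that BC6 was lowest, BC3 was close to BC5 and the H mean was below the L mean. A further control, EF1A, had its smallest value on BC2, at 0.66, and its largest on BC5, as GAPDH had. Its H mean of 0.82 lay above its L mean of 0.72. The part of RNA integrity in the differences was not tested.

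The probe sets most like each enzyme were sought among 7898 probe sets of other named genes above the floor on all 5 arrays, by the root mean square difference of log2 values centred on their own mean. The 2 nearest to PHGDH were both of ACSS2, which activates acetate for lipogenesis, at 0.14 and 0.18. ACSS2 was at 6.68 on BC4, 5.73 on BC5 and 5.73 on BC6 in H, and 8.71 on BC2 and 5.74 on BC3 in L in the nearer probe set, well above the floor on each. PHGDH was clearly above the floor on BC2 only, so its likeness to ACSS2 rests mainly on that array. The 2 nearest to PSPH were both of IVD, a dehydrogenase of leucine breakdown, at 0.30 and 0.32, followed by ECHDC1, a decarboxylase of ethylmalonyl-CoA, at 0.35. PSAT1 was nearest to ABCD3, a peroxisomal transporter, at 0.11, to GGACT at 0.11, and to LIAS, the lipoic acid synthase of mitochondria, at 0.12. Since they were sought for their likeness, their own peak on BC2 is no further observation. No neighbour passed the threshold between the groups, and neither did any other of the 23999 probe sets.

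The brighter probe set of SHMT1 was nearest to CLEC1A, a lectin receptor of endothelial cells, at 0.05, then to RPL34 and to CLDN5, a tight junction protein of endothelium, both at 0.14. CLEC1A was at 9.13 on BC4, 9.74 on BC5 and 8.95 on BC6 in H, and 7.75 on BC2 and 9.18 on BC3 in L, with BC5 highest and BC2 lowest as in SHMT1. Of 8 listed endothelial markers, 7 had a probe set, and 6 of these had a higher mean in H. The 6 include KDR, which has no measured level, and CLDN5, which is also one of the neighbours above and had the largest difference of the list, 1.13. Their mean log2 value was 9.22 on BC4, 9.78 on BC5 and 8.92 on BC6 in H, and 8.59 on BC2 and 9.23 on BC3 in L. As in the brighter SHMT1 probe set, BC5 was highest and BC2 lowest, with BC3 and BC4 too close to order in either. KDR was at or next to the floor on all arrays, and the summed linear signal ran from 10140 to 18836 in H and from 8636 to 12662 in L. In pieces of whole tissue, fewer cells of a type and less RNA per cell cannot be told apart, and the part of endothelial cells in the values of SHMT1 was not tested. The dimmer SHMT1 probe set was nearest to TNFRSF12A at 0.13, ITPR3 at 0.14 and PTGER3 at 0.15, none of which is among the neighbours of the brighter one.

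**Figure D3:**
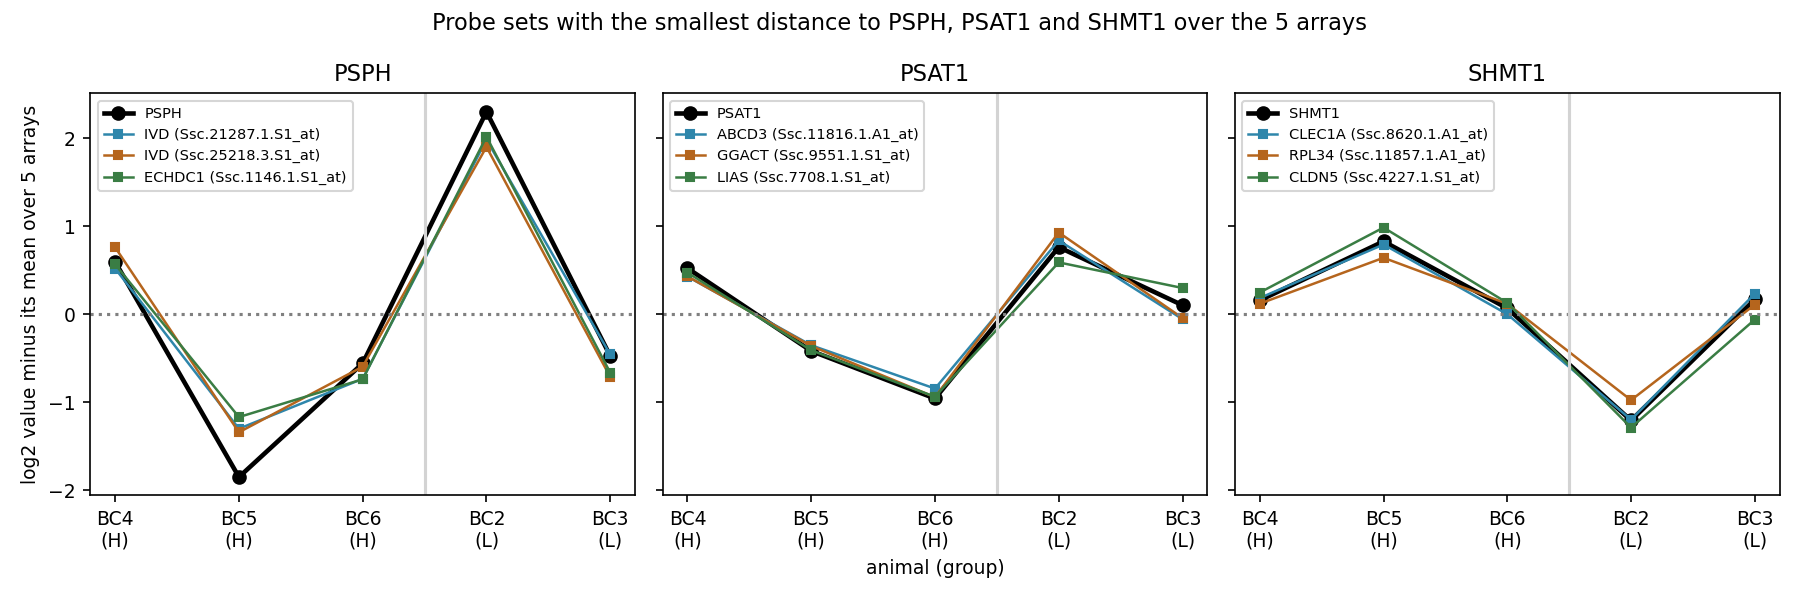
Log2 values minus their own mean (vertical axis) on the 5 arrays (horizontal axis, H animals left of L animals) for PSPH, PSAT1 and the brighter SHMT1 probe set, in black, each with its 3 nearest probe sets in colour. The neighbours of PSPH and PSAT1 peak on BC2, where SHMT1, CLEC1A and CLDN5 have their lowest value.

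The genes around the pathway were taken from 6 lists with 75 genes in all, of which 43 were on the array and 39 exceeded the floor on at least 1 array, with the brightest probe set standing for a gene. None passed the threshold in limma in either direction, and neither did any other of the 23999 probe sets. An unadjusted p under 0.05 was found for 3 of the 39, against 3.18% of all probe sets, which include those at the floor on all arrays. In the limma fit without these, 824 of 18423 had such a p. The mean of H lay below that of L for 29 of the 39 and above it for 9, with 1 at the same value and a median difference of -0.13, where all probe sets above the floor had a median of 0.0017. Of the 9, SDS and GLYCTK lay next to the floor and have no measured level, and nor has GNMT, the gene at the same value. AMT and MTR, also among the 9, had nearly the same value on all arrays but 1, so most of their arrays were not resolved. The groups did not overlap for 8 genes lower in H and 2 higher in H, against 9.38% and 11.5% of the 12727 probe sets with 5 distinct values. Genes with tied values are among the 39 but not in that set.

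The supply of 3-phosphoglycerate comes from glycolysis. Around this step, all 4 measured genes of 5 listed had a lower mean in H, with a median difference of -0.48. Over all probe sets above the floor on some array, 42.5% had a lower mean in H. Of the 4 genes, GAPDH and PGK1 lead to 3-phosphoglycerate, whereas ENO1 and BPGM do not. GAPDH, which precedes 3-phosphoglycerate in glycolysis, was at 12.93 on BC4, 12.68 on BC5 and 12.90 on BC6 in H, and 13.16 on BC2 and 13.25 on BC3 in L. All H arrays lay below both L arrays, and the difference was -0.37 (standard error 0.10, unadjusted p = 0.0317 and adjusted p = 1.0 in limma). PGK1, the kinase that forms 3-phosphoglycerate, differed by -0.62 and by -0.061 without BC2. ENO1, an enolase further down, had groups that did not overlap and differed by -0.59, or by -0.22 without BC2 and -0.95 without BC3, and BPGM, which makes bisphosphoglycerate, differed by -0.17.

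The folate cycle takes up the carbon unit that SHMT1 and SHMT2 release, and 6 of its 8 measured genes of 16 listed were above the floor. MTHFD1, the cytosolic enzyme that interconverts folate carbon units, was at 8.90 on BC4, 8.25 on BC5 and 8.61 on BC6 in H, and 9.29 on BC2 and 9.13 on BC3 in L. The groups did not overlap, with a difference of -0.62 (limma adjusted p = 1.0, standard error 0.24) that lay between -0.78 and -0.46 when any 1 animal was left out. ALDH1L1, which oxidizes formyl folate, differed by -0.64, and by 0.057 without BC2. In mitochondria, MTHFD2 differed by -0.45 (-0.24 without BC2, -0.25 without BC4 and -0.79 without BC6) and MTHFD1L by 0.15. MTR, the methionine synthase, was at 3.18 on BC6 and at 3.15 on all other arrays, which were therefore not resolved from each other. Glycine cleavage had 2 measured genes of 4, with -0.20 for DLD, a subunit shared with other dehydrogenase complexes, and 0.14 for AMT, which was at 3.19 on BC5 and 2.78 on all other arrays, so that nothing remained without BC5.

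Of 18 listed genes that use serine or glycine, 8 were on the array and 7 exceeded the floor. Among the 7, SDS (2.17 on all arrays), GNMT (2.21 on all arrays) and GLYCTK (2.17 to 2.29) lay next to the floor and have no measured level. CTH, which makes cysteine from serine-derived cystathionine, was at 6.16 on BC4, 6.74 on BC5 and 6.45 on BC6 in H, and 7.68 on BC2 and 6.37 on BC3 in L. BC2 again stood above the rest, and the difference of -0.57 was 0.082 without it. ALAS1, which joins glycine and succinyl-CoA for heme, differed by -0.29, GCAT by -0.13 and GLYCTK by 0.03. Among the carriers of serine and related amino acids, 4 of 9 had a probe set. SLC38A1, a sodium-coupled carrier of neutral amino acids, was at 5.74 on BC4, 5.00 on BC5 and 5.88 on BC6 in H, and 4.93 on BC2 and 4.63 on BC3 in L. It was the one carrier with all H arrays above both L arrays, with a difference of 0.76 (limma adjusted p = 1.0, standard error 0.35), and a second probe set near the floor gave 0.084. SFXN1, the mitochondrial serine carrier, was at 4.25 on BC2 and at an identical 4.03 on all other arrays, which were therefore not resolved from each other. Its difference of -0.11 was 0.0 without BC2 and -0.22 without BC3, so it rests on BC2. SLC1A4 and SLC1A5, exchangers of neutral amino acids, differed by -0.06 each.

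ATF4 itself had nearly equal means in both groups, at 12.48 ± 0.28 for H (SD, n = 3) and 12.52 ± 0.11 for L (SD, n = 2). Of 23 listed genes of its amino acid response, 17 were on the array and 16 exceeded the floor, and 13 of these had a lower mean in H and 3 a higher one. Over all probe sets above the floor, 42.5% had a lower mean in H. The groups did not overlap for 5 of the 16 lower in H and 1 higher in H, against 9.38% and 11.5% over all probe sets with 5 distinct values. WARS1, among those lower in H, had the same value on both L arrays and so lies outside that set. ASNS, the asparagine synthetase and a much used readout of this response, was at 7.96 on BC4, 7.28 on BC5 and 7.47 on BC6 in H, and 9.22 on BC2 and 8.16 on BC3 in L. All H arrays lay below both L arrays, by 1.12 on average (limma adjusted p = 1.0, standard error 0.45), and by 0.59 without BC2. DDIT3, a stress-induced transcription factor, was at 6.19 on BC4, 6.73 on BC5 and 6.61 on BC6 in H, and 8.58 on BC2 and 7.22 on BC3 in L. It differed by -1.39 (limma adjusted p = 1.0, standard error 0.52), and by -0.71 without BC2. In ASNS and DDIT3, unlike PSPH and PSAT1, BC4 lay below BC3. SARS1, the seryl-tRNA synthetase that the annotation lists under its older symbol SARS, differed by -0.10 (standard error 0.021, unadjusted p = 0.0145), and XPOT, which exports tRNA from the nucleus, by -0.11, with a second probe set at 0.19. PCK2, the mitochondrial phosphoenolpyruvate carboxykinase, differed by 0.24 and was the one gene of the list with all H arrays above both L arrays.

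**Figure D4:**
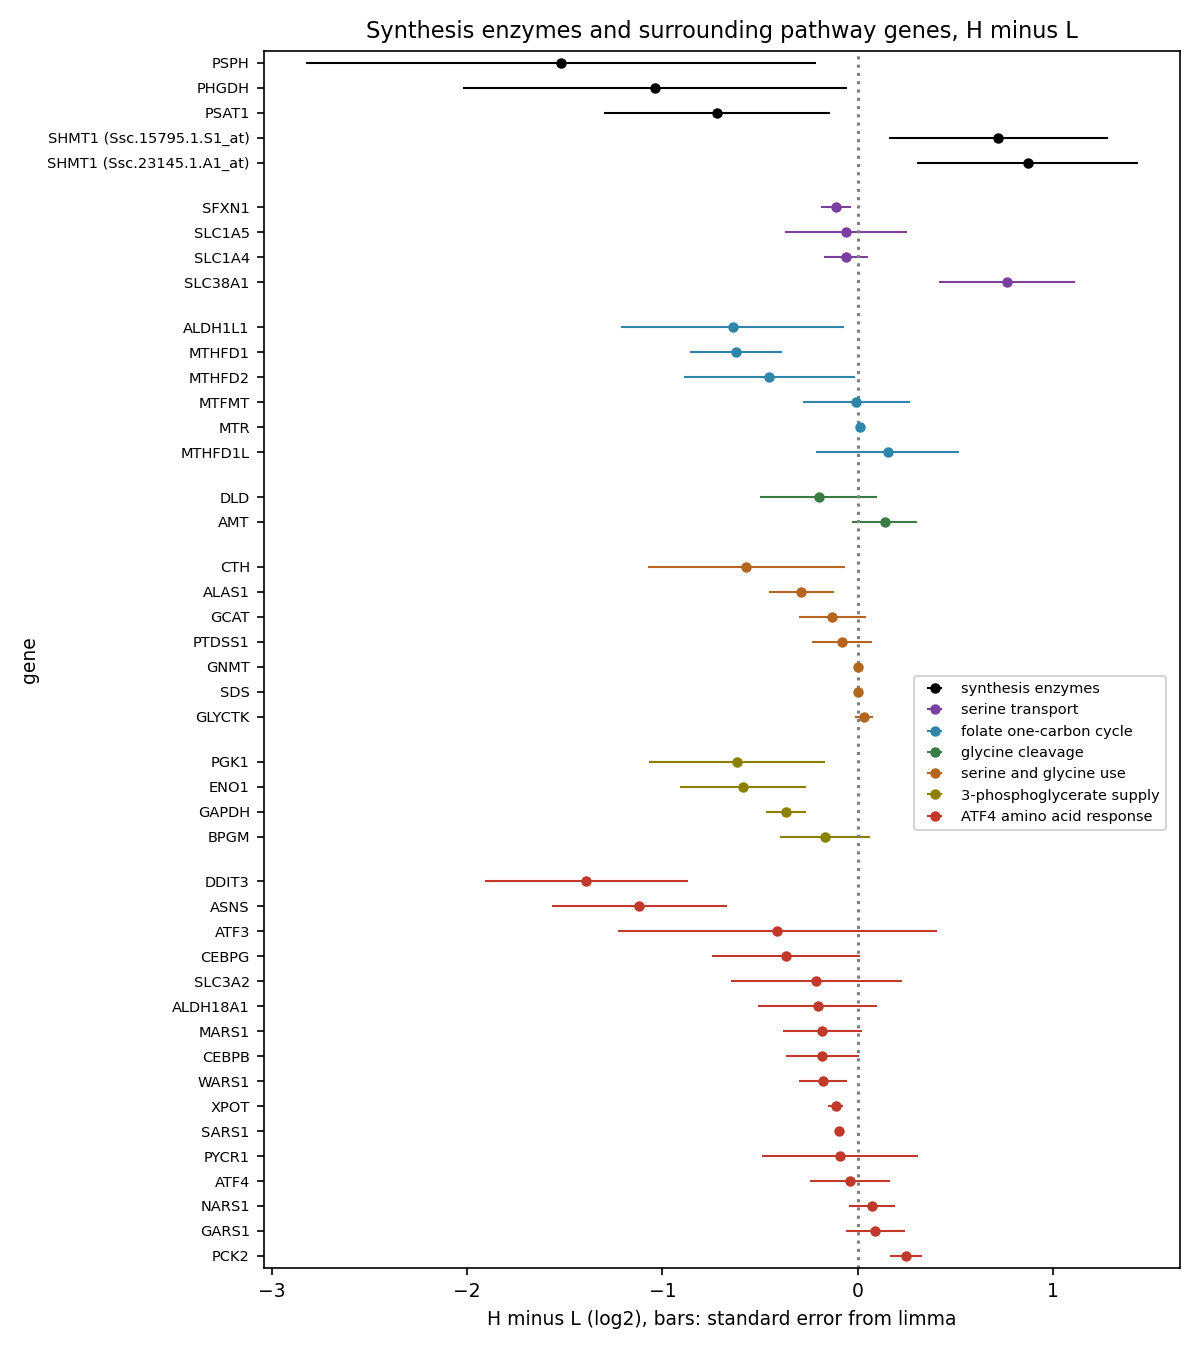
Differences H minus L (horizontal axis, log2, bars for the standard error from limma) of the 5 probe sets of the synthesis enzymes and of 39 genes of the 6 surrounding lists, 1 row per gene. Of the 39 genes, 29 lie left of 0, with DDIT3 at -1.39 and ASNS at -1.12 farthest left and SLC38A1 at 0.76 farthest right.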

How the data were processed

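Total RNA of backfat from 5 pigs was hybridized to GeneChip Porcine arrays (Affymetrix), 1 array per animal. The authors deposited log2 values, 1 per probe set and array, after background adjustment and normalization of the arrays. For this step the methods name GCRMA and the submitters' processing notes RMA, so the step that set the floor is not settled. Both can pull dim probe sets towards it. No read depth applies, and the number of arrays limits the precision.

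Of 24123 probe sets, 124 controls were left out and 23999 were tested as H minus L with limma 3.58.1 in R 4.3.3, with no covariate and Benjamini-Hochberg adjustment, after a test on simulated data. The annotation gave 1 symbol for 10069 probe sets, several for 198 and none for 13732. Further genes named are up to 4 of each pathway list with the smallest p, with others listed by name, and the 3 probe sets nearest to each enzyme. The enzymes and lists were chosen with earlier results of these data known. Alternatives were filters on dim probe sets, scalings, variance models, array weights, the choice of probe set, a spike-in block and leaving out each animal. No sequence of these genes was used here.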

Additional observations from a re-analysis of the deposited data

How the results depend on the processing

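Each of the 5 probe sets of the synthesis enzymes kept its direction, and none passed the threshold, under all alternatives that kept 5 arrays. These gave -1.90 to -1.12 for PSPH, -0.79 to -0.52 for PSAT1, -1.26 to -0.88 for PHGDH, and 0.78 to 1.03 and 0.68 to 0.77 for SHMT1. With 1 animal left out, PHGDH ran from -2.34 to 0.27, 0.27 being the value without BC2, when the arrays left were mostly near the floor and gave no direction. The number of probe sets past the threshold was 0 with all arrays and 0 to 286 with 1 animal left out, of which 160 passed without BC2 and 286 without BC3. It was 1 with the spike-in block, chosen after the data were seen. Fewer arrays enter these fits, and the cause of the changes was not tested. The number of surrounding genes with a lower mean in H was 25 to 33 over its alternatives. No paired analysis was made, because no label pairs an H pig with an L pig. The study avoided siblings within a group, and kinship between H and L pigs is not given.

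Of the surrounding genes named above, SLC1A5 turned to 0.054 with array weights, MTR to -0.032 with median centring and -0.014 with quantile normalization, GLYCTK to -0.010 with median centring, and ATF4 to 0.027 with quantile normalization and 0.021 with array weights. With 1 animal left out, these of the genes named above turned direction: SLC1A4 (-0.13 to 0.018), SLC1A5 (-0.33 to 0.20), ALDH1L1 (-1.34 to 0.057), MTR (-2.7e-05 to 0.016), DLD (-0.41 to 0.012), CTH (-1.22 to 0.082), GCAT (-0.34 to 0.074), GLYCTK (-0.0069 to 0.053), BPGM (-0.31 to 0.012), ATF4 (-0.14 to 0.12), MTHFD1L (-0.12 to 0.35) and FASN (-2.87 to 0.26). Of the listed genes not named above, ATF3, PYCR1, SLC3A2, NARS1, GARS1, MTFMT and PTDSS1 also turned direction. ATF3, for example, went from -0.41 with all arrays to 0.35 without BC3.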
